A study of Homo sapiens with 3 samples.

Results

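The proteasome is the barrel-shaped protease that degrades ubiquitin-tagged proteins in the cytoplasm and the nucleus. Its core particle, the 20S, is a stack of rings of alpha subunits (PSMA genes), which gate the entry, and beta subunits (PSMB genes), some of which cut proteins. The regulatory particle, the 19S, recognises, unfolds and feeds substrates through a base ring of ATPases (PSMC genes) and a lid (PSMD genes), while other caps (PSME genes), an inhibitor (PSMF1) and chaperones that assist assembly (PSMG genes and some PSMD genes) bind the same core. Members were taken by name alone, as every protein-coding row whose symbol is PSM, a letter from A to G and a number, a rule that uses no measured value. RefSeq has 48 such genes, of which 46 were among the 16463 genes listed with at least 1 read in every library. PSMA8, an alpha subunit of the testis, and PSMB11, a beta subunit of the thymus, were not among the listed genes.

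AsPC-1, an established human pancreatic cancer cell line labelled with the genotype WT, was transfected with 200 nM of a control siRNA (siNC) or of 1 of 2 siRNAs against the long non-coding RNA LINC00941 (si#1 and si#2). Total RNA was taken on Day 1, that is 24 h after transfection, and sequenced in 1 library per condition. All 3 conditions received the same transfection reagent, and both siRNAs are compared with the same siNC library. The comparison asks which genes differ once LINC00941, an RNA the study links to MAPK signaling, is lowered.

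With 1 culture per condition, no difference below has a replicate check, and the intervals in brackets are exact 95% intervals that cover counting error only. Libraries held 88690997 to 92510692 reads in listed genes. LINC00941 itself had 1551, 214 and 273 reads (in the order siNC, si#1, si#2, kept throughout), that is log2 fold changes of -2.89 and -2.56. All 8 epithelial markers were listed, the lowest being KRT7 with 191, 383 and 382 reads. The leukocyte, endothelial and acinar genes PTPRC, CD3E, PECAM1, CDH5, KDR, PRSS1, CPA1, CELA3A and PNLIP were not listed. Of the fibroblast markers, COL1A1 and COL1A2 were not listed, COL3A1 had at most 35 reads and DCN at most 10, while LUM had between 23660 and 27075 reads. The other listed markers of these cell types, LYZ, CD14 and VWF, had at most 313, 86 and 26 reads.

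Short stretches of the promoters are shown first for the members that the results turn on. Only the DNA word that each window was chosen for is in capitals. The words searched on both strands were CGGAA (bound by ETS factors), TGACNNNGC and TGAGNNNGC (core of the element bound by NFE2L1, the factor that drives proteasome genes when the proteasome is blocked, and by its relatives), CCAAT (bound by NF-Y) and GAAANNGAAA (core of the interferon-stimulated response element). The windows are RefSeq sequence of GRCh38.p14, 30 bases long, read along the strand of each gene. PSME4 is shown because it was the member that passed 2-fold, and PSMD9 because it had the highest fold change with si#2. PSMB5 is shown as the main catalytic subunit, and the last 4 because they encode inducible subunits and hold GAAANNGAAA. PSMB9, also an inducible subunit, had a promoter entry without that word and is not shown.
PSME4 (chr2:53971044-53971073, minus strand): cCGGAAgtgacttgaggccggtcCGGAAcc
PSMD9 (chr12:121888553-121888582, plus strand): aatgagaaaaTGAGTCAGCtggggcgagat
PSMD9 (chr12:121888678-121888707, plus strand): cggcttccggTGACCCAGCtccgccctaag
PSMB5 (chr14:23035367-23035396, minus strand): tcattattttacCCAATtttagaaggtgcc
PSMB8 (chr6:32844032-32844061, minus strand): gatctgtggcTTTCGCTTTCacttcctcct
PSMB10 (chr16:67936852-67936881, minus strand): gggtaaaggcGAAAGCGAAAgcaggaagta
PSME1 (chr14:24136189-24136218, plus strand): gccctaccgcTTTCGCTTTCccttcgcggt
PSME2 (chr14:24146619-24146648, minus strand): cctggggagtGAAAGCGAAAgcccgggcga
The PSME4 window holds CGGAA at 2 places, the later one starting at base -57 from the transcript start. Outside its window, the PSME4 entry also held TGACNNNGC and TGAGNNNGC. The PSMD9 entry also held CGGAA at 3 places. The one at -108, on the opposite strand, lies in the later PSMD9 window, in lower case as ttccg. In PSMB8 and PSME1 the interferon word lies on the opposite strand, at -4 and 6, and in PSMB10 and PSME2 on the gene strand, at -21 and -28 (for PSMB8, from the start nearer to the coding part of its 2 entries). The PSMB5 window comes from an entry that lies upstream of another PSMB5 entry. That other entry held no CCAAT but held the CGGAA matches of the gene.

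Promoter entries of 300 bases were found for 40 of the 46 members (none for PSMA7, PSMB1, PSMB6, PSMB7, PSMD4 and PSMG3). A gene was counted if any of its entries held the word. GAAANNGAAA was in 7 of the 40, against 3.90% of protein-coding genes averaging 1000 reads or more and 3.94% of 11162 listed genes with entries. Besides the 4 members shown, these were PSMA4, PSMB4 and PSMG4. TGACNNNGC was in 15 of 40 (37.5%), against 19.8% and 19.3% of the same reference genes, and TGAGNNNGC in 13 (32.5%), against 26.4% and 25.8%. CGGAA was in 32 (80%), against 64.6% and 58.8%, and CCAAT in 19 (47.5%), against 43.9% and 42.6%. A match that overlaps one of another word was counted under each. These matches describe letters in the windows and not bound sites.

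All but 1 of the 46 members averaged 1000 reads or more, the exception being PSMB9, and the members together took 674363, 765349 and 691894 reads. Of all reads, that was 0.760% (0.759 to 0.762) in siNC, 0.827% (0.825 to 0.829) in si#1 and 0.761% (0.760 to 0.763) in si#2. The share was thus higher with si#1 than in the other 2 libraries, which lay within each other's counting intervals. In TPM, which corrects for transcript length, the members summed to 7465 in siNC, 7800 with si#1 and 6936 with si#2.

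**Figure D1:**
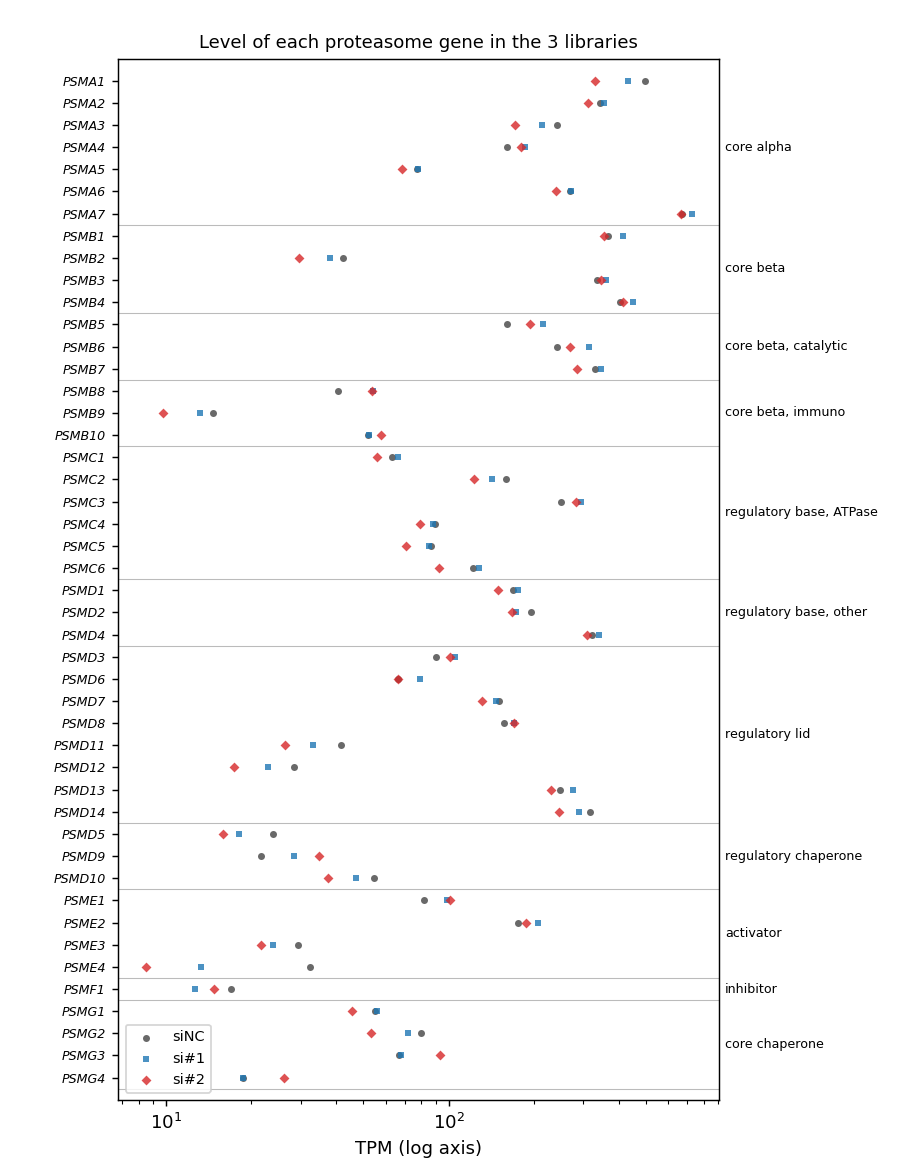
TPM (log axis) of each of the 46 proteasome genes in siNC (grey circles), si#1 (blue squares) and si#2 (red diamonds), 1 library each, ordered by the part of the complex named at the right. PSMA7 was highest, at 663 to 724 TPM, and for PSME4 both siRNA libraries lie well below siNC.

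A fold change below is the difference between 2 libraries in quantile-normalized log2(read count + 1), and a gene was called at 2-fold or more. PSME4 was called with si#1, 1 of 46 members, while 12.0% of all listed genes were called (6.80% fell, and 2.76% of the protein-coding genes averaging 1000 reads or more). With si#2 it was again PSME4 alone, while 12.7% of all listed genes were called (7.17% fell, and 3.26% of those protein-coding genes). Of all listed genes 6.04% were called the same way with both siRNAs (3.51% fell), and of the 8506 protein-coding genes averaging 1000 reads or more, which match the members better in read number, 3.67% were called with si#1, 4.53% with si#2 and 2.28% the same way with both (1.66% fell). At 1.5-fold, 1 member passed with si#1, where 26.7% of all listed genes did, and 3 with si#2 (PSME4, PSMD9 and PSMB8), where 29.9% did. A count of 1 member is too small to read against these shares.

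PSME4 encodes PA200, a large single-chain cap of the core particle, best known for its part in the degradation of acetylated histones in mouse spermatogenesis and in DNA repair. The gene lies on chromosome 2, at 53864069 to 53970993 on the minus strand. It had 14184, 6590 and 4320 reads, or 32.4, 13.3 and 8.48 TPM. Both siRNA libraries were far below siNC, and si#2 was below si#1. PSME4 fell by 1.14 on the log2 scale with si#1 (-1.18 to -1.10), leaving 0.453 of its siNC value. With si#2 it fell by 1.67 (-1.72 to -1.62), leaving 0.313. The siRNAs differed by -0.53 (-0.59 to -0.48), si#2 minus si#1. In RNA of whole cultures, fewer cells with the transcript and less of it per cell cannot be told apart. ACYP2, the gene that starts next to PSME4 on the other strand, had 176, 172 and 182 reads in siNC, si#1 and si#2.

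The PSME4 transcript is long, at 7250 bases, with 42.2% G and C, and fold changes in these libraries varied with both properties. Of the 1013 protein-coding genes of at least that length averaging 1000 reads or more, the log2 fold changes had medians of -0.33 (si#1) and -0.38 (si#2), and 11.9% and 14.3% of them fell by 2-fold or more. Once a smooth trend with length and GC content was subtracted, PSME4 stood at -0.92 with si#1, no longer called, and at -1.35 with si#2. PSMF1, whose transcript is longer still at 8154 bases, had log2 fold changes of -0.29 and 0.05. The pooled fits that follow took the siRNAs as replicates of each other. Their spread thus mixes differences between siRNAs with those between cultures. When both siRNA libraries were pooled against siNC, which assumes that the lone siNC library varies as they do, DESeq2's Wald test gave PSME4 an adjusted p of 4.37e-06 and edgeR's quasi-likelihood test an adjusted p of 0.155. DESeq2, which gave no adjusted p for 4150 genes, passed 7.20% of all listed genes at an adjusted p of 0.05, with PSME4 and PSMD9 (adjusted p = 0.0416) among them, and edgeR passed none, although 18.0% had an unadjusted p under that value, 8 members included.

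**Figure D2:**
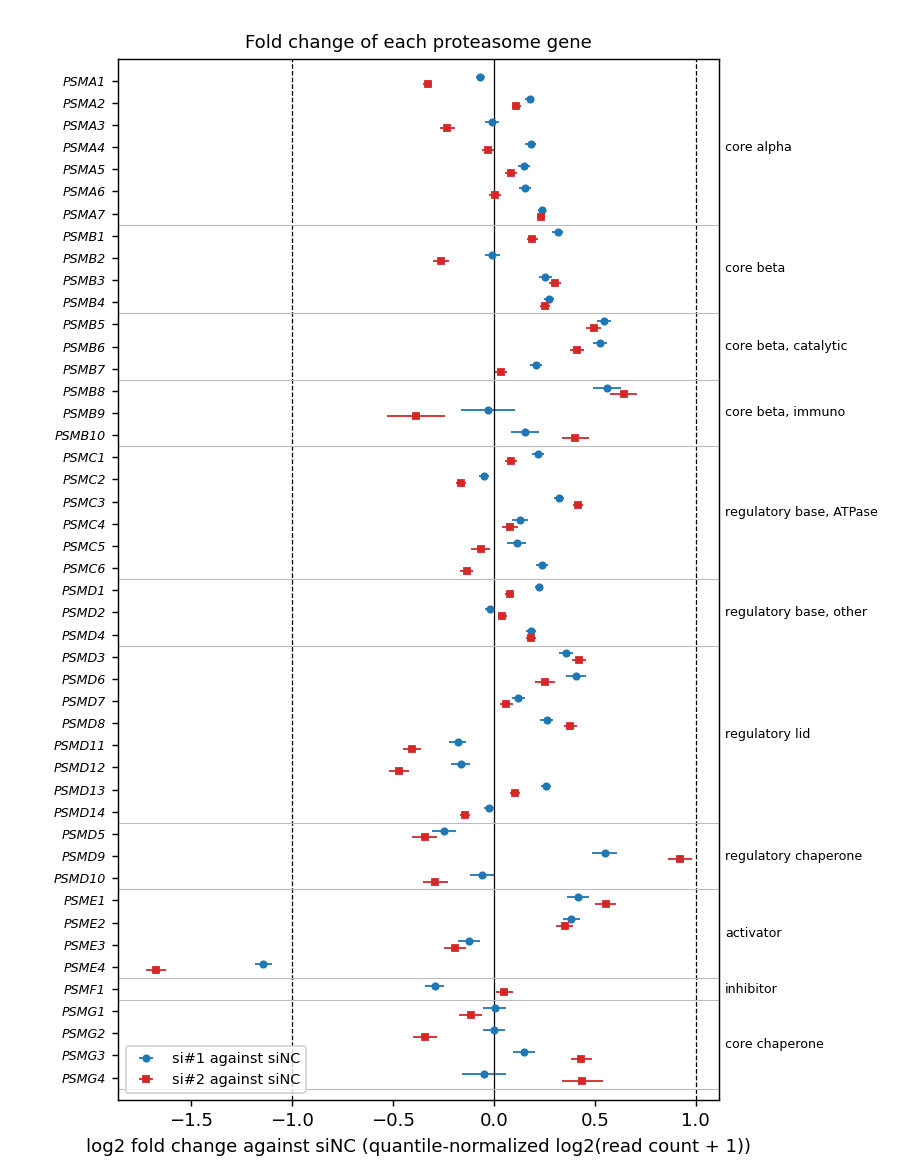
Log2 fold change of each proteasome gene with si#1 (blue circles) and si#2 (red squares) against the shared siNC library, with exact 95% counting intervals as bars and dashed lines at 2-fold. PSME4 alone lies beyond a dashed line, at -1.14 and -1.67, and PSMD9 with si#2 comes nearest on the other side, at 0.92.

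The other caps of the core particle did not pass 2-fold. PSME1 and PSME2 encode the paired subunits of PA28, a cap that interferon induces and that promotes the release of peptides. PSME1 had 4796, 6563 and 6896 reads in siNC, si#1 and si#2, with log2 fold changes of 0.42 (0.36 to 0.47) and 0.55 (0.50 to 0.61). PSME2 had 8447, 11230 and 10450 reads, with 0.38 (0.34 to 0.43) and 0.35 (0.31 to 0.39). Both PA28 genes thus lay above siNC with both siRNAs, by less than the call threshold. PSME3, the nuclear cap PA28 gamma, had log2 fold changes of -0.12 and -0.19. PSMF1, an inhibitor of the core in the test tube (PI31), had 8129, 6815 and 8203 reads, or 17.0, 12.7 and 14.8 TPM, with -0.29 (-0.34 to -0.25) and 0.05 (0.01 to 0.10). The value with si#2 turned to -0.02 with total counts and was 0.25 with the length and GC trend subtracted.

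The 7 alpha subunits, which form the outer rings and their gate, had medians of 0.16 with si#1 and 0.01 with si#2, and none passed 2-fold. The median with si#2 was -0.09 on the log2(TPM + 1) scale. PSMA7 had the highest TPM of all members, at 671 in siNC, 724 with si#1 and 663 with si#2. Its read count of 39044, 47586 and 44842 gave log2 fold changes of 0.24 (0.22 to 0.26) and 0.23 (0.21 to 0.25), but on the log2(TPM + 1) scale they were 0.11 and -0.04, so that the direction with si#2 turned. PSMA1 had 37491, 36943 and 29000 reads, or 496, 432 and 330 TPM, with log2 fold changes of -0.07 (-0.09 to -0.05) and -0.33 (-0.35 to -0.30). The alpha genes therefore did not move as 1 block. By read count PSMA1 lay below siNC and PSMA2, PSMA5 and PSMA7 above it with both siRNAs, although in TPM these last 3 were below siNC with si#2 as well. PSMA1 stood at 0.01 with si#1 once the length and GC trend was subtracted.

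Of the 4 beta subunits with no active site in the constitutive core, PSMB1, PSMB3 and PSMB4 lay above siNC with both siRNAs (0.19 to 0.32 by read count, with PSMB1 below siNC in TPM with si#2) and PSMB2 was at -0.01 and -0.26. PSMB4, among the 3 members highest in mean TPM, had 22516, 28154 and 26724 reads, or 406, 449 and 414 TPM, with 0.27 (0.25 to 0.30) and 0.25 (0.23 to 0.28). None of them passed 2-fold.

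The active sites are carried by PSMB6 (caspase-like), PSMB7 (trypsin-like) and PSMB5 (chymotrypsin-like, the main target of bortezomib). PSMB5 had 10533, 15601 and 14337 reads, or 161, 216 and 194 TPM. PSMB6 had 12120, 17763 and 15701 reads, or 243, 315 and 269 TPM. Both were above siNC in both siRNA libraries, PSMB5 by 0.55 (0.51 to 0.58) and 0.49 (0.46 to 0.53), PSMB6 by 0.53 (0.49 to 0.56) and 0.41 (0.38 to 0.44). PSMB7 had 19548, 23199 and 19632 reads, or 328, 345 and 284 TPM, with 0.21 (0.18 to 0.24) and 0.04 (0.01 to 0.07), and its value with si#2 turned to as low as -0.16 under other scalings. The median of the 3 catalytic genes was 0.53 with si#1 and 0.41 with si#2, the highest of the role groups with si#1, and it stayed between 0.37 and 0.53 and between 0.19 and 0.41 under the other scalings, below 2-fold in each.

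PSMB8, PSMB9 and PSMB10 are the interferon-inducible immunoproteasome subunits, which take the places of PSMB5, PSMB6 and PSMB7 in newly built cores and change which peptides are presented on MHC class I. PSMB8 had 2832, 4297 and 4338 reads, or 40.7, 54.2 and 53.8 TPM, and log2 fold changes of 0.56 (0.49 to 0.63) and 0.64 (0.57 to 0.71). PSMB10 had 3061, 3501 and 3974 reads, or 51.8, 52.5 and 57.9 TPM, with 0.16 (0.08 to 0.23) and 0.40 (0.34 to 0.47). PSMB9, the member with the fewest reads, had 904, 917 and 700, or 14.7, 13.2 and 9.78 TPM, with -0.03 (-0.16 to 0.11) and -0.39 (-0.53 to -0.24). The 3 genes therefore did not move together, PSMB8 and PSMB10 lying above siNC with both siRNAs and PSMB9 below it with si#2, although PSMB10 stood at -0.14 and 0.01 once the length and GC trend was subtracted. TAP1, a peptide transporter subunit that shares a bidirectional promoter with PSMB9, had 3789, 5475 and 4838 reads, that is log2 fold changes of 0.51 and 0.37.

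As a share of the TPM of all 6 catalytic genes, the immunoproteasome genes made up 12.8% in siNC, 12.0% with si#1 and 14.0% with si#2. In read counts the shares were 13.9% (13.6 to 14.2), 13.4% (13.1 to 13.6) and 15.4% (15.1 to 15.7). The share with si#2 thus lay above siNC, while the intervals of siNC and si#1 overlapped. Within the pairs, PSMB8 was 20.2%, 20.0% and 21.7% of the TPM of PSMB8 and PSMB5, and PSMB10 was 13.6%, 13.2% and 16.9% of that of PSMB10 and PSMB7. PSMB9 was 5.70%, 4.02% and 3.51% of the TPM of PSMB9 and PSMB6. The constitutive subunit was the main transcript of each pair in all 3 libraries.

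The ATPases of the base (PSMC1 to PSMC6) unfold substrates and open the gate of the core. Their median was 0.18 with si#1 and 0.01 with si#2 (-0.13 on the log2(TPM + 1) scale), and none of the 6 passed 2-fold. PSMC3 had the highest fold change of them, with 23916, 31713 and 31335 reads and log2 fold changes of 0.32 (0.30 to 0.35) and 0.42 (0.39 to 0.44). PSMC6 lay on opposite sides of siNC, at 0.24 (0.21 to 0.27) with si#1 and -0.13 (-0.17 to -0.10) with si#2. PSMC1 has processed pseudogenes, of which PSMC1P1 had 930 to 989 reads beside 16777 to 19915 for PSMC1, so a part of their reads may be exchanged. Of the base subunits without ATPase activity, the scaffolds PSMD1 and PSMD2 and the ubiquitin receptor PSMD4 had log2 fold changes between -0.02 and 0.22, and their median with si#2, 0.08, turned to -0.07 on the log2(TPM + 1) scale.

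The 8 lid subunits had medians of 0.19 and 0.08 (with si#2 -0.08 on the log2(TPM + 1) scale), with members on both sides of siNC and none past 2-fold. PSMD3, a scaffold of the lid, stood at 0.36 and 0.42, and PSMD6 at 0.41 and 0.25, although its TPM was 66.4 in siNC and 66.1 with si#2. PSMD11, a lid subunit known for its high level in human embryonic stem cells, had 9738, 8753 and 7207 reads, or 41.7, 33.2 and 26.5 TPM, and log2 fold changes of -0.18 (-0.22 to -0.14) and -0.41 (-0.45 to -0.36). PSMD12, a further scaffold, had 7464, 6856 and 5330 reads, with -0.16 (-0.21 to -0.12) and -0.47 (-0.52 to -0.42). PSMD14, the deubiquitinase that removes ubiquitin chains as substrates enter, was at -0.02 and -0.14. The lid genes thus differed among themselves, from -0.47 to 0.42 with si#2.

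Among the chaperones of the base, PSMD9 (p27) had the highest fold change of any member with si#2. It had 3573, 5291 and 6630 reads, or 21.7, 28.4 and 34.7 TPM, with log2 fold changes of 0.55 (0.49 to 0.61) and 0.92 (0.86 to 0.98). PSMD9 was thus above siNC in both siRNA libraries and higher with si#2 than with si#1, by 0.37, without reaching 2-fold in either. PSMD5 (S5b) had 4904, 4196 and 3793 reads, or 24.0, 18.2 and 16.0 TPM, with -0.25 (-0.31 to -0.19) and -0.34 (-0.40 to -0.28). PSMD10 (gankyrin) had 4867, 4740 and 3893 reads, with -0.06 (-0.12 to 0.00) and -0.29 (-0.35 to -0.23). Chaperones that bind the same ATPase ring thus lay on opposite sides of siNC.

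The chaperones of the core work as pairs, PSMG1 with PSMG2 and PSMG3 with PSMG4, which guide the building of the alpha ring. PSMG4 had 1337, 1341 and 1820 reads, or 18.7, 18.7 and 26.3 TPM, with log2 fold changes of -0.05 (-0.16 to 0.06) and 0.44 (0.34 to 0.54). On the log2(TPM + 1) scale the values of PSMG4 were 0.13 and 0.68, so that the direction with si#1 turned. PSMG3 was at 0.15 and 0.43. PSMG1 stood at 0.00 and -0.11, and PSMG2 at 0.00 and -0.34. With si#2 the genes of the later pair thus lay above siNC and those of the earlier pair below it, and with si#1 3 of the 4 had intervals that span 0.

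The 46 members had a median log2 fold change of 0.16 (si#1) and 0.08 (si#2), beside 0.03 and 0.02 over all listed genes and 0.06 and 0.05 over protein-coding genes averaging 1000 reads or more. Members above siNC were 31 of 46 (67.4%) with si#1 and 29 (63.0%) with si#2, against 56.0% and 54.4% of those protein-coding genes. On the log2(TPM + 1) scale the members above siNC were 30 (65.2%) with si#1 but 18 (39.1%) with si#2, against 52.4% and 50.4% of those genes, and with TMM they were 29 and 24. The median with si#1 stayed above 0 under every scaling tried, whereas with si#2 it was -0.07 on the log2(TPM + 1) scale and 0.00 to 0.01 with TMM, DESeq2 size factors or total counts. The members were spread less widely than other genes, with an interquartile range of 0.28 and 0.50 against 0.49 and 0.59 for those protein-coding genes. Of the 46, 40 (87.0%) lay within 0.5 of siNC on the log2 scale with both siRNAs, against 68.1% of those protein-coding genes and 52.6% of all listed genes. No member differed 2-fold between si#1 and si#2, where 8.23% of all listed genes and 0.541% of the protein-coding genes averaging 1000 reads or more did. Lower with si#2 than with si#1 were 33 of 46 members (71.7%), against 49.6% of those protein-coding genes and 48.1% of all listed genes.

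The members' fold changes were ordered by the GC content of their transcripts, more clearly with si#2. Across the 46 genes, which come from the same libraries and are not independent, Spearman's rho between the fraction of G and C and the log2 fold change came to 0.48 and 0.70 (si#1, si#2), and 0.46 and 0.70 without PSME4. Across 8497 protein-coding genes averaging 1000 reads or more it was 0.41 and 0.58. With transcript length rho was -0.43 and -0.44 across members and -0.42 and -0.45 across those genes. The 11 members lowest in GC (36.4% to 41.9%, PSMC6 to PSMA4) had medians of -0.01 and -0.23, and 2 of them lay above siNC with si#2. In the 11 highest in GC (53.0% to 61.7%, PSMB5 to PSMB10) the medians were 0.26 and 0.42, and all 11 lay above siNC with si#2 by read count, at 0.18 to 0.64. Both sets were formed after the values were seen, the trend was not particular to proteasome genes, and its part in each member's fold change was not tested beyond the subtraction named above and in the plot of alternatives.

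**Figure D3:**
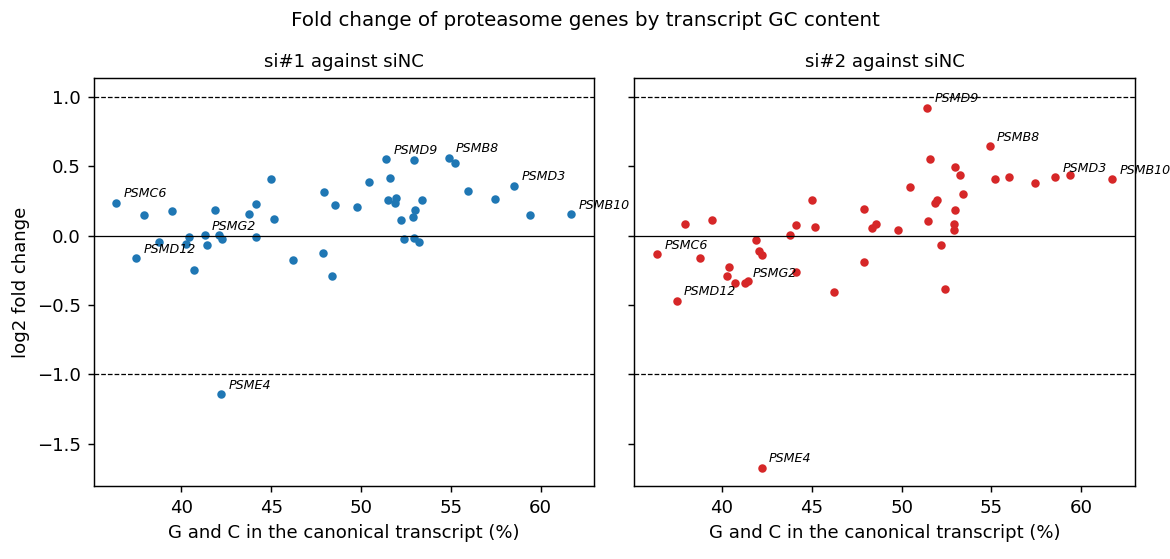
Log2 fold change of each of the 46 proteasome genes against the percent of G and C in its canonical GENCODE transcript, with si#1 (left, blue) and si#2 (right, red), dashed lines at 2-fold. Points climb from left to right, with a Spearman rho of 0.48 with si#1 and 0.70 with si#2, and PSME4 lies below the others of like GC content.

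**Figure D4:**
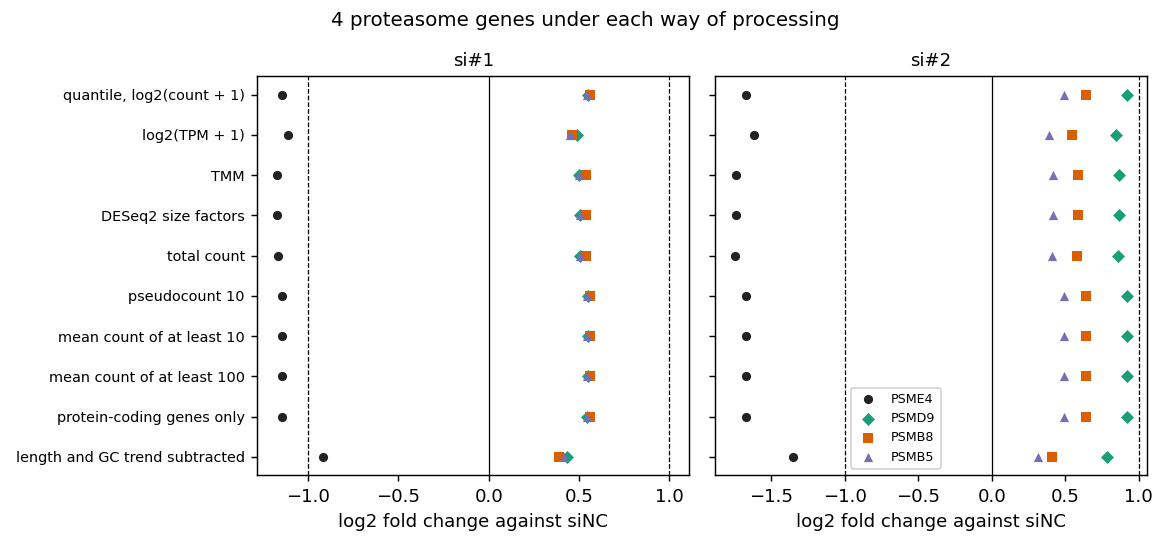
Log2 fold change of PSME4, PSMD9, PSMB8 and PSMB5 with si#1 and si#2 under quantile normalization (top) and each alternative, with dashed lines at 2-fold. PSME4 stays beyond 2-fold in each except after subtraction of the length and GC trend with si#1, where it is -0.92, and the other 3 stay above 0 and under 2-fold throughout.

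Outside the named family, 61 genes of the ubiquitin and proteasome pathway and of MHC class I presentation were listed. Of these, 3 fell by 2-fold with si#1 and 3 with si#2, 2 of them with both, and 1 rose with each. The 4.92% that fell with each siRNA lay between the 6.80% and 7.17% of all listed genes and the 2.76% and 3.26% of protein-coding genes averaging 1000 reads or more. Among genes whose products bind the proteasome, USP14, a deubiquitinase that trims chains on the regulatory particle, had 5175, 2115 and 1937 reads. It fell with both siRNAs, with log2 fold changes of -1.32 (-1.40 to -1.25) and -1.41 (-1.48 to -1.33). UBE3C, a ubiquitin ligase that lengthens chains at the proteasome, had 30295, 18745 and 14128 reads, that is -0.73 with si#1 and, past 2-fold, -1.08 with si#2. These 2 were the genes called among 9 that bind the proteasome, whose median was -0.45 and -0.34, beside 0.06 and 0.05 over protein-coding genes averaging 1000 reads or more. The 2251 of these protein-coding genes at least as long as the list's median transcript (5184 bases) had medians of -0.21 and -0.27.

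Of the genes that control NFE2L1, the transcription factor for proteasome genes, DDI2, the protease that activates it, had 7368, 3502 and 2928 reads. DDI2 fell with both siRNAs, at -1.10 (-1.16 to -1.05) and -1.31 (-1.37 to -1.25). SYVN1, a ubiquitin ligase of the endoplasmic reticulum that keeps NFE2L1 low, had 943, 461 and 580 reads, with -1.07 (-1.23 to -0.90) with si#1 and -0.71 (-0.87 to -0.56) with si#2. NFE2L1 itself was at 0.13 and 0.34 by read count, with 47.2, 46.7 and 49.8 TPM, so that with si#1 it lay slightly below siNC in TPM. In MHC class I presentation, 1 of 18 genes, HLA-F, passed 2-fold, with 23, 62 and 62 reads, and it is named after its values were seen because its mean is under 50 reads. None of 8 genes of the VCP segregase, 6 of ubiquitin and its activating enzymes and 4 further subunits or assembly factors passed 2-fold. UBXN7 of the VCP genes came nearest, with 3798, 1988 and 1987 reads and log2 fold changes of -0.96 and -0.92. In TPM it had 5.97, 2.77 and 2.69, past 2-fold below siNC with both siRNAs. It is named after its values were seen. The transcripts of USP14, UBE3C and DDI2 are long as well (4972, 5214 and 10667 bases), and the part of length in their values was not tested.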

How the data were processed

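RNA of 3 AsPC-1 cultures (siNC, si#1, si#2) was made into stranded total RNA libraries and sequenced in paired ends. HISAT2 (alignment to GRCh38) and StringTie (known genes) were the tools of the authors. Their versions, and whether counting used the strand, are not given in the sources used here. Read counts per gene and TPM were deposited by the authors, and columns headed FPKM repeat the read counts. The authors' normalized columns are log2(read count + 1) after quantile normalization, which was recomputed here to within 4.99997e-09. The 12 columns of the authors' comparisons (fold changes and volumes) and 18 per-sample columns (means that repeat the normalized values, and a short second sheet) were not used.

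Fold changes are differences of quantile-normalized log2(read count + 1) over all 16463 listed genes, called at 2-fold, as in the study. Intervals are those of Clopper and Pearson (exact, 95%) for 1 read count over another, scaled by the normalization, and reads without molecular identifiers are not independent molecules, so they cover counting error only. With 1 library per group there is no test of a single siRNA. Pooled fits used edgeR 4.0.16 (quasi-likelihood) and DESeq2 1.42.0 (Wald test) in R 4.3.3, with Benjamini-Hochberg adjustment over all genes. They treated the siRNA libraries as replicates of each other. The same fits were run on simulated data with identical changes in both siRNA libraries. That run cannot show how the fits behave where the siRNAs differ. Alternatives were other units, scalings, pseudocounts, filters and thresholds, and subtraction of a cubic trend with length and GC content. Length and GC content are those of the GENCODE canonical transcript, matched by symbol for 15733 genes and all 46 members, and promoters are RefSeq entries matched by gene ID.

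Members and lists were chosen with earlier results of these data known. Named with values were members called with either siRNA, the 3 highest and 3 lowest in mean TPM and the 6 catalytic genes. Also named were the 3 highest in the smaller of both fold changes, the 3 lowest in the larger and the 3 that differed most between siRNAs. Outside genes were named if called with a mean of at least 50 reads. Other members were named for their role.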

Additional observations from a re-analysis of the deposited data

How the results depend on the processing

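Of 53 alternative values for the counts of called members, the median and the immunoproteasome share, 39 stayed close to the reported value and 14 moved. The number of members called with si#1 and with both siRNAs was 0 once the length and GC trend was subtracted. A 1.5-fold threshold gave 3 members with si#2 (PSMB8, PSMD9 and PSME4). With the siRNA libraries pooled against siNC, edgeR called 0 members and DESeq2 called 2. The members' median with si#1 was 0.0677 on the log2(TPM + 1) scale and 0.10 with the trend subtracted, and with si#2 it was -0.0681 on the log2(TPM + 1) scale, 0.00800 with TMM, 0.00988 with DESeq2 size factors and 0.000936 with total counts. The immunoproteasome share in read counts came to 13.9%, 13.4% and 15.4% in siNC, si#1 and si#2. For named members and role groups, 180 alternative values moved and 288 did not, and with si#2 the medians of the alpha, base and lid genes turned below 0 on the log2(TPM + 1) scale. The cause of these shifts was not tested. Scaling moved the median of all genes by less than 0.1 on the log2 scale. No paired analysis was possible because each group has 1 library, and for the same reason no replicate could be left out. A difference between 1 siRNA library and siNC cannot be told apart from a difference between 2 cultures, and the counts limit only the precision of each ratio.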

Other observations

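Some rows named after proteasome genes are not protein-coding and were looked at after the members. PSMD6-AS2, a long non-coding RNA antisense to PSMD6, had 165, 45 and 20 reads (siNC, si#1, si#2), a log2 fold change of -1.84 (-2.35 to -1.36) and -3.01 (-3.75 to -2.33), while PSMD6 itself had 5963, 8052 and 6958 reads. PSMB8-AS1 had 96, 108 and 170 reads and PSMG3-AS1 had 78, 81 and 153 reads, with values of 0.77 (0.40 to 1.15) and 0.89 (0.49 to 1.30) with si#2. PSMA3-AS1 had 786, 852 and 967 reads. These rows were chosen after their values were seen, and reads of a gene and its antisense partner cannot be told apart here, since it is not given whether counting used the strand.

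For a few genes the relation of TPM to read counts differed from that of most members. Across members the log2 ratio in TPM lay below that in read counts by a median of 0.175 with si#1 and 0.217 with si#2. These read counts were neither normalized nor scaled for library size. PSMA4 had 18030, 20881 and 17135 reads in siNC, si#1 and si#2 but 161, 187 and 180 TPM, so that with si#2 it lay below siNC in reads and above it in TPM. PAAF1, a factor that binds the base ATPases, had 2058, 2181 and 2355 reads but 11.6, 6.44 and 7.05 TPM. The core chaperones PSMG1, PSMG3 and PSMG4 departed as well. Their log2 ratio in TPM less that in reads was 0.01, -0.15 and -0.004 with si#1, and -0.13, 0.08 and 0.04 with si#2. All of these genes were picked out after their values were seen.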
